A study of Rattus norvegicus with 6 samples.

Results

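The genes described here are those of the epithelial sodium channel and of the aldosterone response that sets its activity, measured in rat renal cortex. They were chosen by name, as the probes whose transcript accession maps to Scnn1a, Scnn1b, Scnn1g, Nr3c2, Hsd11b2, Sgk1, Nedd4l, Tsc22d3 or Fxyd4. Of these 9 genes, 7 had a probe, with 12 probes among the 61537 of each array and 7 of the 15645 genes named there. Nedd4l and Fxyd4 matched no probe by accession and were not analysed here. Both groups were male Sprague-Dawley rats, Crl:CD(SD), bought at 5 weeks of age and kept on a basal diet with tap water. The control group of 3 rats was given water, and the treated group of 3 rats was given potassium bromate at 100 mg/kg/day, each for 4 weeks. Potassium bromate is an oxidising salt that damages kidney tubules. Each rat gave 1 RNA sample and 1 single-colour array, and the comparison asked which genes differed in the cortex under bromate.

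The epithelial sodium channel takes up sodium from the tubule fluid across the apical membrane of connecting tubule and collecting duct principal cells. It is built of an alpha, a beta and a gamma subunit, encoded by Scnn1a, Scnn1b and Scnn1g. Aldosterone binds the mineralocorticoid receptor, encoded by Nr3c2, and the enzyme encoded by Hsd11b2 inactivates glucocorticoid in the same cells and so keeps the receptor free for aldosterone. The active receptor raises transcription of the kinase gene Sgk1, whose product slows the removal of the channel by the ubiquitin ligase NEDD4-2, and of Tsc22d3, which encodes the leucine zipper protein GILZ. Both Sgk1 and Tsc22d3 also respond to glucocorticoid through its own receptor.

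In the bromate group the receptor gene Nr3c2, the enzyme gene Hsd11b2 and the beta subunit gene Scnn1b were lower, by 2.14-fold, 1.90-fold and 1.70-fold. The alpha and gamma subunit genes had lower means but did not pass the test. The target genes Sgk1 and Tsc22d3 did not pass it either, and their means were slightly higher under bromate with a wide spread inside both groups. Of the 12 probes, 10 entered the test, all 10 well above background on all 6 arrays. The test gave 4 of these 10 probes as lower (3 of 7 genes), 0 as higher and 6 as not called by limma at an adjusted p under 0.05. Among all 37783 probes tested, 7.60% were called lower and 7.19% higher. With any 1 array except water replicate 1 dropped, 1 member probe stayed called, that of Nr3c2. The median log2 difference, bromate minus water, was -0.50 over the 10 probes and -0.02 over all probes. Expression is of whole cortex, so fewer cells of a type and less RNA per cell cannot be told apart.

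Each array held 57.9% to 63.1% of its probes well above background and 0 saturated probes, and the number of arrays limits the precision. The correlation between arrays, across probes that are no independent replicates, was 0.983 to 0.992 for pairs of water arrays, 0.987 to 0.991 for pairs of bromate arrays and 0.966 to 0.977 for mixed pairs. Water replicate 1 was on a slide of its own, and the remaining 5 arrays were together on another. Levels are the log2 of a probe's signal over the 75th percentile of its array, given in the order replicate 1, 2 and 3 and as mean ± SD with n = 3 per group. Differences are log2 values, bromate minus water, ± standard error.

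Promoter sequences are shown for the 4 members that had a window among the promoter sequences at hand. Of these, the channel genes Scnn1b and Scnn1g had lower means under bromate, while Sgk1 and Tsc22d3 varied together among the arrays. Each window is the 250 bases before an annotated start in RefSeq, build GRCr8, 5′ to 3′ on the strand of the gene, and the letters are of the reference, not of these rats. Scnn1b is at chr1:185861126-185861375, plus strand, and Scnn1g at chr1:185735975-185736224, plus strand. Sgk1 has 3 starts in the table and Tsc22d3 has 3, and start 3 of each is printed. Both of these windows hold a TATAAA box, as does that of Sgk1 start 1, which is not printed. The printed windows are chr1:24804832-24805081, minus strand, for Sgk1 and chrX:109010035-109010284, minus strand, for Tsc22d3. Capitals mark GGGCGG or TATAAA on either strand (CCGCCC or TTTATA when on the other one).
Scnn1b: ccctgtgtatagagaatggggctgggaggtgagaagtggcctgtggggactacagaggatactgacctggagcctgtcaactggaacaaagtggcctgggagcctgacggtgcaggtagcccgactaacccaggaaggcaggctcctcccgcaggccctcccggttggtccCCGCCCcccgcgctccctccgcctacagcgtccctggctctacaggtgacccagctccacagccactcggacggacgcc
Scnn1g: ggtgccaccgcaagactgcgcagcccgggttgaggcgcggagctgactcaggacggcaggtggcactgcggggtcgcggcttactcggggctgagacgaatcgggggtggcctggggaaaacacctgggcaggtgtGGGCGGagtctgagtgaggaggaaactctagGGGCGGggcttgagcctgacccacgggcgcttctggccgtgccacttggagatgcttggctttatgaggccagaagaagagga
Sgk1 start 3: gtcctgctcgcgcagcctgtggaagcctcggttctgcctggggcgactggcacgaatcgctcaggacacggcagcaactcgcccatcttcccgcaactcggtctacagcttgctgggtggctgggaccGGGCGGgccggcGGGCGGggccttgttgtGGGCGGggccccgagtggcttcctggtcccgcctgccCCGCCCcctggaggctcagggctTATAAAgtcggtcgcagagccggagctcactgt
Tsc22d3 start 3: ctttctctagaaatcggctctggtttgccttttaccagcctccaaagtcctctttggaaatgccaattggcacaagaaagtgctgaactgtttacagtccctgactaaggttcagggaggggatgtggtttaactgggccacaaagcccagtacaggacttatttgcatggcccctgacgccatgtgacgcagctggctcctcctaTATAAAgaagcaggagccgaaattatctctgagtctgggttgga
The Scnn1b and Scnn1g windows both have 65.6% G and C, against a median of 51.2% over all 33469 windows in the table. Scnn1b has 1 GGGCGG, with its first base 79 bases before the start, and Scnn1g has 2, at 114 and 83 bases before it. That motif occurs in 30.467% of all windows of this length. Sgk1 start 3 has 69.6% G and C, 4 GGGCGG and a TATAAA 33 bases before the start, and Tsc22d3 start 3 has 49.2% G and C and a TATAAA 44 bases before it. TATAAA occurs in 12.931% of all windows, and in the window of Sgk1 start 1 it lies 55 bases before the start. AGAACA, the core letters of the element that steroid receptors bind, was searched for on both strands and is in 0 of the 8 windows of these 4 genes and in 17.524% of all windows, which says only that these letters are not in these windows. Scnn1a, Nr3c2 and Hsd11b2 had no window among these sequences and so are not shown.

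**Figure D1:**
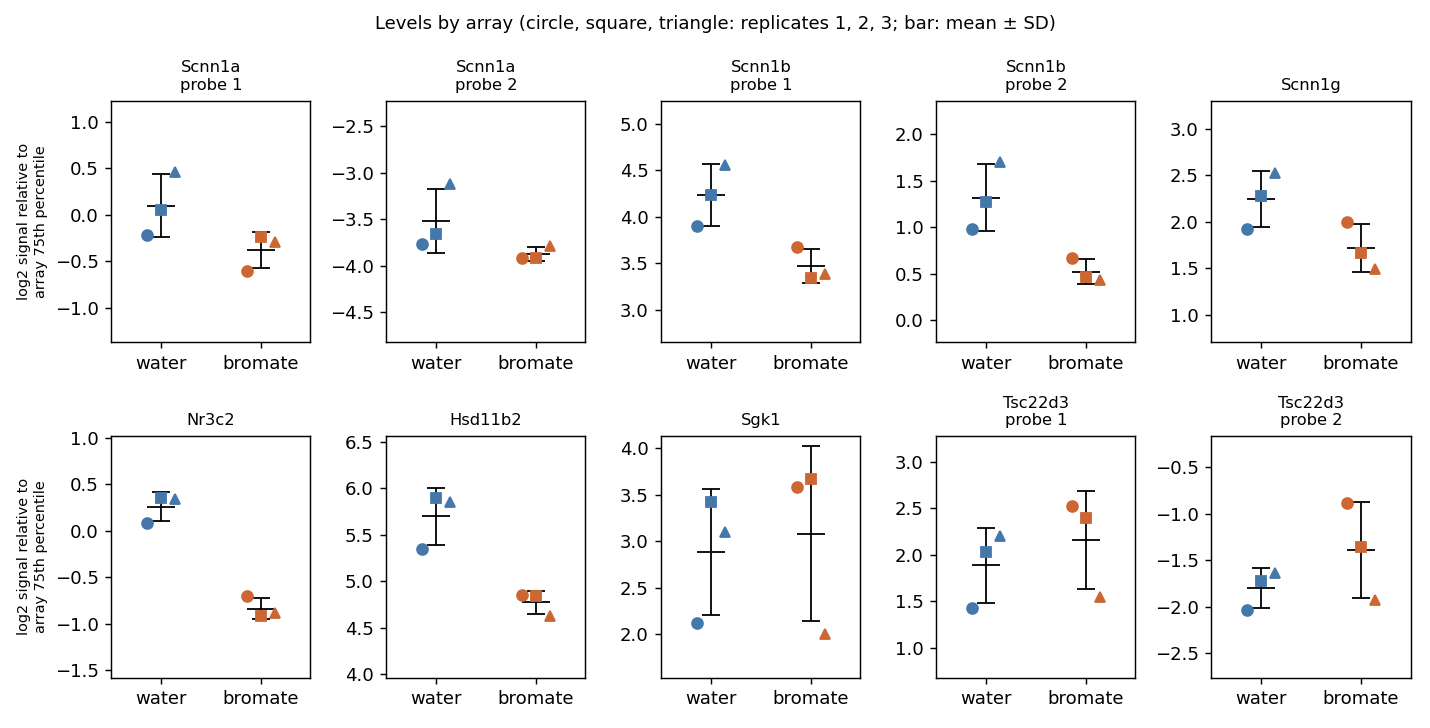
Log2 signal relative to the array's 75th percentile (vertical axes, each spanning the same height) for the 10 tested probes in the water and bromate groups. Circles, squares and triangles are replicates 1, 2 and 3, and bars are mean ± SD with n = 3 per group. Nr3c2 and Hsd11b2 stand apart between the groups, while Sgk1 spreads from 2.00 to 3.67 in the bromate group alone.

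Nr3c2 encodes the receptor through which aldosterone acts. Its level was 0.08, 0.36 and 0.35 under water and -0.70, -0.91 and -0.89 under bromate. All bromate values lay below all water values, and the gap between the groups was wider than the range inside either. The means were 0.26 ± 0.15 and -0.83 ± 0.11, a difference of -1.10 ± 0.11 (95% interval -1.38 to -0.82, limma adjusted p = 0.00519). A further 2 probes of Nr3c2 were not well above background on any array, so no fold is given for them. The difference was -1.19 with slide as a block (limma adjusted p = 0.00876), a fit that leaves water replicate 1 out of the comparison and equals the fit on the other slide alone. Nr3c2 was called in all 20 alternative settings, with limma adjusted p from 0.00159 to 0.0467. Nr3c1, which encodes the glucocorticoid receptor, differed by -0.26 ± 0.10 and did not pass (adjusted p = 0.140).

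Hsd11b2 encodes the dehydrogenase that protects the mineralocorticoid receptor from glucocorticoid. Its level was 5.35, 5.90 and 5.85 under water and 4.85, 4.84 and 4.63 under bromate. The groups did not overlap, and water replicate 1 was the lowest of the water arrays. The difference was -0.92 ± 0.17 (means 5.70 ± 0.31 and 4.77 ± 0.13, 95% interval -1.34 to -0.51, limma adjusted p = 0.023). Within the shared slide it was -1.10 (adjusted p = 0.0113). The call was lost when any 1 array except water replicate 1 was dropped, with adjusted p from 0.0547 to 0.0761. Hsd11b1, whose product works in the opposite direction and regenerates active glucocorticoid, is reported with the pathway genes below.

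Scnn1b, for the beta subunit, was the channel gene with both of its probes called. Its brighter probe read 3.90, 4.24 and 4.56 under water and 3.68, 3.34 and 3.38 under bromate. Its other probe read 0.98, 1.27 and 1.70 under water and 0.67, 0.47 and 0.43 under bromate. On both probes all bromate values were below all water values, with the narrowest gap between water replicate 1 and bromate replicate 1. The brighter probe differed by -0.76 ± 0.19 (95% interval -1.23 to -0.29, limma adjusted p = 0.0497) and the other by -0.80 ± 0.19 (adjusted p = 0.0457). Both lost the call when any 1 array except water replicate 1 was dropped, and the brighter probe then had adjusted p from 0.0692 to 0.140. Within the shared slide the brighter probe differed by -0.93 (adjusted p = 0.0332).

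Scnn1g, for the gamma subunit, read 1.92, 2.28 and 2.52 under water and 1.99, 1.66 and 1.49 under bromate. Here the groups overlapped, since bromate replicate 1 was above water replicate 1. The difference of -0.53 ± 0.20 did not pass (95% interval -1.02 to -0.04, limma adjusted p = 0.127). With limma's array weights, which give noisier arrays less say, it was -0.69 and passed (adjusted p = 0.0329), the 1 setting of 20 in which it did.

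Scnn1a encodes the alpha subunit, whose transcription aldosterone raises in the kidney. Its brighter probe read -0.22, 0.05 and 0.46 under water and -0.60, -0.24 and -0.30 under bromate. The groups did not overlap, but water replicate 1 and bromate replicate 2 were almost level. The difference was -0.48 ± 0.20 (95% interval -0.96 to 0.00, limma adjusted p = 0.154), and -0.30 without water replicate 3. The other probe read -3.76, -3.66 and -3.12 under water and -3.92, -3.91 and -3.78 under bromate, without overlap and with a difference of -0.36 ± 0.18 (adjusted p = 0.222), which was -0.16 without water replicate 3. In all, 6 of the 10 tested member probes had groups that did not overlap, all 6 lower under bromate, against 41.1% of all probes without overlap and 21.1% without overlap and lower.

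**Figure D2:**
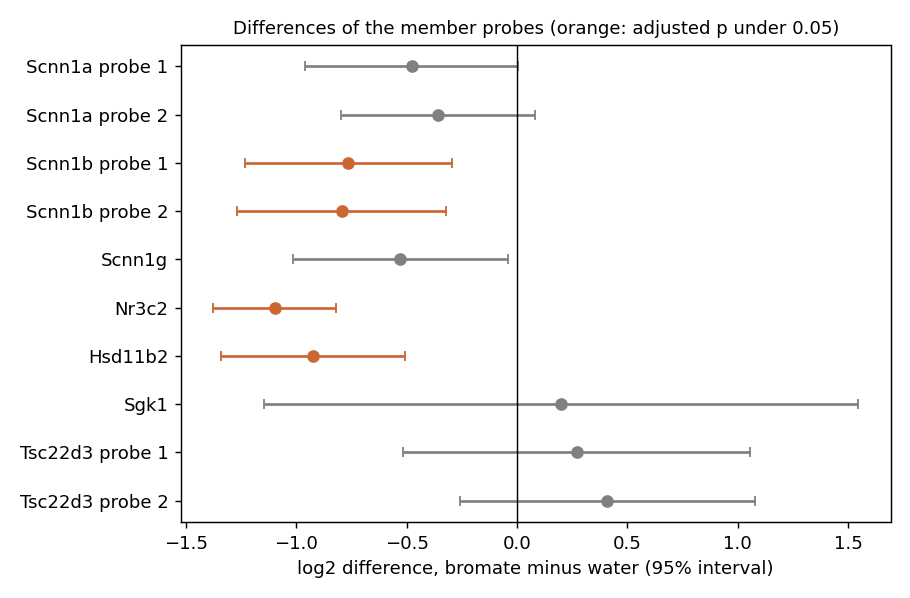
Log2 difference, bromate minus water (horizontal axis), with its 95% interval for each tested probe, from the limma fit over 3 water and 3 bromate arrays. Orange marks the 4 probes with an adjusted p under 0.05, all to the left of 0, and the interval of Sgk1 runs from -1.15 to 1.55.

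Whether the subunits changed by unequal amounts was tested within arrays on the brighter probe of each, over 3 pairs. Scnn1b minus Scnn1g was 1.97, 1.96 and 2.04 under water and 1.69, 1.68 and 1.89 under bromate. All bromate values of this difference were below all water values, so Scnn1b fell relative to Scnn1g by 0.24 on the log2 scale in these arrays, with an exact two-sided permutation p = 0.1, the smallest that 3 against 3 allows (0.3 adjusted over the 3 pairs). Scnn1a minus Scnn1b changed by 0.29 (exact p = 0.4, adjusted 0.6) and Scnn1a minus Scnn1g by 0.05 (exact p = 1, adjusted 1). The last of these turned to -0.042 under normexp and quantile normalization, so its direction is not settled. With 3 arrays per group no pair could pass this test, so it does not settle whether the subunits changed alike.

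All 5 subunit probes were lowest in water replicate 1 and highest in water replicate 3 among the water arrays, an order that 19.3% of all genes with a symbol shared. That share counts a gene by its brightest probe, whereas Scnn1a and Scnn1b each enter with 2 probes, so it is not the same measure. The summed level of 4 straight proximal tubule markers moved the other way among the same arrays, at 7.76, 4.93 and 2.66 under water and 2.42, 0.11 and 2.47 under bromate, as the log2 of the summed relative signal. Its part in the subunit values was not tested. The order of arrays and the straight tubule list were set beside each other after the values had been seen.

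Sgk1, the kinase gene induced by aldosterone and by glucocorticoid, read 2.13, 3.43 and 3.10 under water and 3.59, 3.67 and 2.00 under bromate. Water replicate 1 and bromate replicate 3 were low and the other 4 arrays were high, so the groups overlapped. The difference was 0.20 ± 0.55 (95% interval -1.15 to 1.55, limma adjusted p = 0.830), an interval that leaves room for a 2-fold change either way. Its pooled SD within groups, 0.818, was larger than that of 97.3% of all probes, whose median was 0.163. Leaving out water replicate 1 gave -0.18 and leaving out bromate replicate 3 gave 0.74, both not called, so the direction rests on single arrays.

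Tsc22d3, the GILZ gene, had 2 probes with the same pattern. The brighter read 1.43, 2.02 and 2.20 under water and 2.52, 2.39 and 1.55 under bromate. The other read -2.04, -1.72 and -1.64 under water and -0.89, -1.35 and -1.92 under bromate. As with Sgk1, water replicate 1 and bromate replicate 3 were the lowest of their groups on both probes. The differences were 0.27 ± 0.32 (adjusted p = 0.596) and 0.41 ± 0.27 (adjusted p = 0.344), neither called. The brighter probe differed by 0.04 without water replicate 1 and by 0.57 without bromate replicate 3, and the other by 0.16 without bromate replicate 1 and by 0.68 without bromate replicate 3.

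Of the 10 tested member probes, 6 were lowest in water replicate 1 among the water arrays and in bromate replicate 3 among the bromate arrays. These were Sgk1, both Tsc22d3 probes, the dimmer Scnn1b probe, Scnn1g and Hsd11b2. Among all 11572 genes with a symbol the share was 11.6%, and in a list of 17 receptor partners and steroid target genes it was 6 genes (35.3%), a count made after the values had been seen. Both shares count a gene by its brightest probe, whereas the member count takes every tested probe and so is not the same measure. The brighter Scnn1b probe was lowest in bromate replicate 2 and is not in it. Fkbp5, a chaperone gene and classical glucocorticoid target, was one of them, with 0.95, 1.79 and 3.17 under water and 3.73, 3.79 and 2.75 under bromate. Per1, a clock gene that steroids induce, read -3.68, -1.84 and -1.92 under water and -1.44, -1.39 and -4.06 under bromate. Klf9, a transcription factor gene induced by glucocorticoid, read 3.09, 3.60 and 3.59 under water and 3.97, 3.65 and 3.14 under bromate. The other 3 were Zbtb16, Usp2 and Dot1l. None of the 6 passed the test between groups on its brightest probe. The Fkbp5 difference there was 1.45 ± 0.60 (limma adjusted p = 0.155), and 0.94 without water replicate 1. Fkbp5 has 3 tested probes, and of the other 2 one differed by 1.38 ± 0.61 and was not called (adjusted p = 0.174), while the dimmest was called higher, at 1.54 ± 0.38 (adjusted p = 0.0485).

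**Figure D3:**
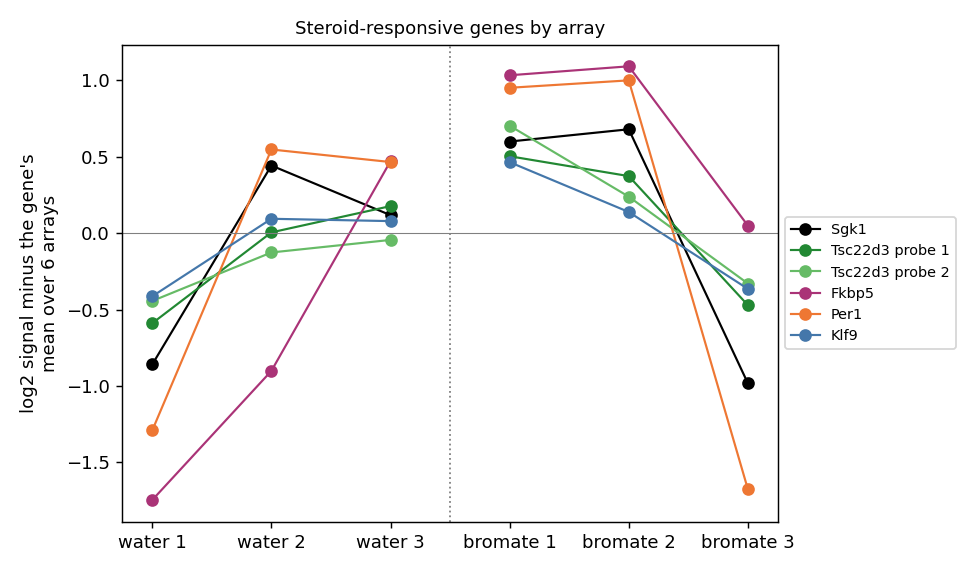
Log2 signal of Sgk1, both Tsc22d3 probes, Fkbp5, Per1 and Klf9 on each array, minus the mean of that gene over the 6 arrays (vertical axis), for water replicates 1 to 3 and bromate replicates 1 to 3. Lines join the values of 1 gene and imply no order of replicates. Within each group all 6 series are lowest in water replicate 1 and in bromate replicate 3. Fkbp5, Per1 and Klf9 were drawn from the 6 of 17 listed steroid genes with that pattern, after the values had been seen. The shared pattern thus follows from the choice of genes, and the rest of the list is not drawn.

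The other genes of the pathway were taken from 5 lists of 64 genes, of which 61 had a probe and 59 were tested as their brightest probe. Of these 59 genes, 11 were lower, 2 were higher and 46 were not called, with a median difference of -0.13. Among all 11572 genes with a symbol, 8.54% were called lower and 8.76% higher, and the median was -0.02. The list counts moved with single arrays. With water replicate 2 left out 6 genes were lower, and with water replicate 3 or bromate replicate 2 left out 7 were. No gene was higher with any one of these 3 or bromate replicate 1 left out (0 genes), and 1 gene was with bromate replicate 3 left out.

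Among 17 receptor partners and steroid targets, 2 were lower, 1 was higher and 14 were not called (median 0.16). Ndrg2, an aldosterone-induced gene, read 3.56, 3.67 and 3.97 under water and 2.44, 2.71 and 2.75 under bromate, without overlap and with a difference of -1.10 ± 0.15 (limma adjusted p = 0.0101). Hsd11b1 was lower (-0.73 ± 0.15, adjusted p = 0.0291). Cnksr3, a scaffold gene induced by aldosterone that supports the channel, was higher, at -1.67, -2.04 and -2.01 under water and -1.16, -1.26 and -1.14 under bromate (0.72 ± 0.12, adjusted p = 0.0184). Its further tested probes differed by 0.38 and 0.69, and only 1 of them was called higher. The calls of Hsd11b1 and Cnksr3 were likewise lost when any 1 array except water replicate 1 was dropped, with adjusted p up to 0.0899 and 0.0664. Among steroid-induced genes, Ndrg2 was lower and Cnksr3 higher, while Sgk1 and Tsc22d3 were not called.

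Among 17 ubiquitin ligase, kinase and WNK genes, 14 were tested, 2 were lower, 0 were higher and 12 were not called (median -0.05). Rictor, Sgk3 and Klhl3 matched no probe and were not analysed here. Wnk1, whose kinase-deficient kidney transcript and full-length kinase both regulate distal salt transport, read 5.05, 5.07 and 5.28 under water and 3.17, 3.57 and 3.55 under bromate, a difference of -1.70 ± 0.14 (limma adjusted p = 0.00281). Stk39, for the kinase SPAK that acts below WNK kinases, was lower (-0.95 ± 0.14, adjusted p = 0.0126), and lost the call without water replicate 2 (adjusted p = 0.0515). Nedd4, a ubiquitin ligase related to NEDD4-2, differed by 0.08 and was not called (adjusted p = 0.635).

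Among 9 genes of proteases that cleave and activate the channel and of their inhibitors, 2 were lower, 0 were higher and 7 were not called (median -0.19). Prss8, which encodes the channel-activating protease prostasin, read 6.66, 6.39 and 6.29 under water and 5.54, 5.47 and 5.67 under bromate, without overlap and with a difference of -0.89 ± 0.12 (limma adjusted p = 0.0119). Tmprss2, a membrane serine protease gene, was lower (-0.63 ± 0.11, adjusted p = 0.0182), a call lost without water replicate 2, water replicate 3 or bromate replicate 2 (adjusted p up to 0.0684).

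Among 12 genes of the sodium pump, its FXYD regulators and distal potassium channels, 10 were tested, 4 were lower, 0 were higher and 6 were not called (median -0.30). Kcnj1, for the potassium channel ROMK that secretes potassium in exchange for the sodium taken up, read 0.87, 0.93 and 1.03 under water and -0.54, -0.57 and -0.45 under bromate, a difference of -1.46 ± 0.09 (limma adjusted p = 0.00116). Fxyd2, for the gamma subunit of the kidney sodium pump, was lower (-0.68 ± 0.08, adjusted p = 0.00672) and so was Fxyd6, another pump regulator (-1.81 ± 0.21, adjusted p = 0.00734). Kcnj16, a basolateral potassium channel gene, was lower (-0.53 ± 0.10, adjusted p = 0.0276) and lost the call when any 1 array except water replicate 1 was dropped (adjusted p up to 0.0924). The pump subunit gene Atp1b1 was not called, with a difference of -0.01.

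Among 9 genes of the angiotensin system, which drives aldosterone release, 1 was lower, 1 was higher and 7 were not called (median -0.58). Agtr1a, for an angiotensin receptor, was lower (-0.70 ± 0.15, adjusted p = 0.0339), a call lost when any 1 array except water replicate 1 was dropped (adjusted p up to 0.0979).

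**Figure D4:**
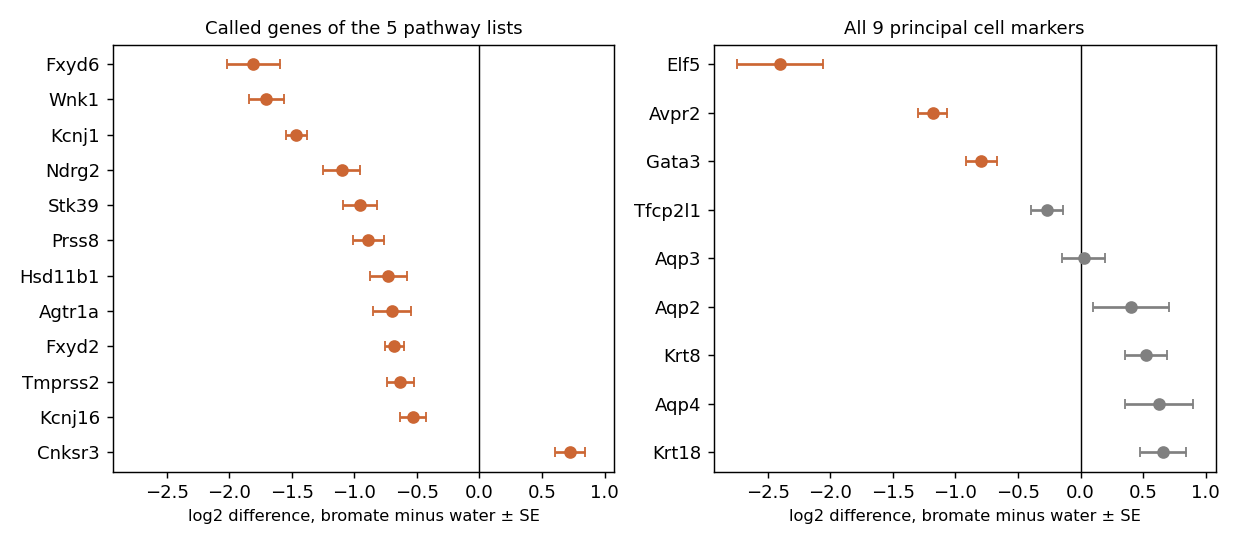
Log2 difference, bromate minus water, ± SE (horizontal axes) from the limma fit on 3 arrays per group, for 12 of the 13 called genes of the 5 pathway lists (left) and for the 9 principal cell markers (right). Orange marks an adjusted p under 0.05, and on the right the 3 called markers lie left of 0 while Aqp2 and Aqp3 lie at 0.40 and 0.03.

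The cells that carry the channel were examined through their own markers. Of 9 principal cell markers, 3 were lower, 0 were higher and 6 were not called (median 0.03). Among all genes with a symbol, 8.54% were called lower and 8.76% higher. The water channel genes of these cells were present on every array and were not called, with Aqp2 at 6.49, 6.69 and 7.17 under water and 7.76, 7.05 and 6.76 under bromate (0.40 ± 0.30, limma adjusted p = 0.396). Aqp3 differed by 0.03 and Aqp4 by 0.63, with further Aqp4 probes at 0.47, 0.26 and -0.17, none called. The keratin genes Krt8 and Krt18 differed by 0.52 and 0.66 and Tfcp2l1 by -0.27, none of them called. Krt18 had further probes at 0.80 and 0.67, of which 1 was called higher. Lower were the vasopressin receptor gene Avpr2 (-1.18 ± 0.11, adjusted p = 0.0043) and the transcription factor genes Gata3 (-0.79 ± 0.12, adjusted p = 0.0155) and Elf5 (-2.41 ± 0.34, adjusted p = 0.0125). Elf5 was well above background on 3 water arrays and 1 bromate array, so the size of its difference is uncertain, and without it 2 of 8 markers were lower. The calls of Elf5 and Gata3 were lost without water replicate 2, and that of Gata3 also without bromate replicate 2. The summed level of the list ranged from 7.29 to 7.78 under water and from 7.52 to 8.22 under bromate. This sum adds signals before the log2 is taken, so bright genes such as Aqp2 weigh most in it. It therefore need not follow the 3 called markers.

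Many markers of neighbouring cell types were lower too, but not all. All 7 intercalated cell markers were lower (median -1.59), and their summed level was 7.30 to 7.52 under water and 5.26 to 5.66 under bromate. Of 8 markers of the distal convoluted and connecting tubule, part of which carries the channel, 6 were tested, 4 were lower and 1 was higher. The 4 lower were Calb1 (-2.09), Slc8a1 (-2.00), Slc12a3 (-1.88) and Klk1 (-1.53), of which only Klk1 stayed called with each array left out. The higher one was Trpv5 (1.78, limma adjusted p = 0.0273). Its call was lost without water replicate 1, water replicate 2, bromate replicate 2 or bromate replicate 3 (adjusted p up to 0.0903). S100g differed by 1.11 and was not called. The summed level of this list was 7.44 to 7.70 under water and 5.88 to 6.32 under bromate. Lower were 4 of 6 thick ascending limb markers (1 higher), 6 of 8 proximal tubule markers, 1 of 4 tested inner medulla markers, 1 of 5 podocyte markers and 1 of 5 endothelial markers. Among all 11572 genes with a symbol, 8.54% were called lower and 8.76% higher. Over the 20 alternative settings the proximal tubule genes called lower numbered 1 to 7. They numbered 0 to 3 for podocytes and 0 to 2 for both inner medulla and endothelium, so a single call in these short lists is not firm. Higher were 3 of 6 tubule injury markers, 1 of 5 fibroblast and muscle markers and 1 of 5 tested macrophage markers. The fibroblast and muscle call was Des (0.54, limma adjusted p = 0.0468), lost when any 1 array was dropped (adjusted p up to 0.131). Of 4 straight proximal tubule and 3 tested lymphocyte markers, 0 were called. The part of these shifts in the values of Nr3c2, Hsd11b2 and Scnn1b was not tested.

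The genes most like each called member were found as the smallest root mean square difference between centred log2 profiles over the 6 arrays, among 11554 genes. For Nr3c2 they were Atp6v0d2 (0.0763), Foxi1 (0.0799) and Pcdh7, and the first 2 stand in the intercalated cell list, with differences of -1.16 and -1.08. For the brighter Scnn1b probe the nearest 3 included Tlr12 (0.0798) and C1ql4 (0.0896), and for the other probe they were Pla2g1b (0.0614), Tlr12 (0.0864) and C1ql4 (0.0983). For Hsd11b2 they were Slc22a5 (0.106), Tac4 (0.107) and Pax5 (0.108). The root mean square deviation of each of these members about its own mean was 0.441 to 0.560. The listed genes were picked as the nearest of all those searched, so their small distances are no test of likeness.

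How firmly each member stood under other processing differed between them. Only Nr3c2 kept its call in all 20 settings tried, 6 of which leave out 1 array. The brighter Scnn1b probe kept it in 9 of 20, the other Scnn1b probe in 10 of the 18 settings that keep it and Hsd11b2 in 12 of 20. Scnn1a was called in none of them, with limma adjusted p from 0.0754 to 0.667 for its brighter probe. The 20 settings are not separate checks, since the slide block and leaving out water replicate 1 are the same fit. The authors' value table and keeping outlier spots nearly repeat the reported fit, with the brighter Scnn1b probe at -0.76 in each. These tallies therefore overstate how many independent settings kept a call.

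**Figure D5:**
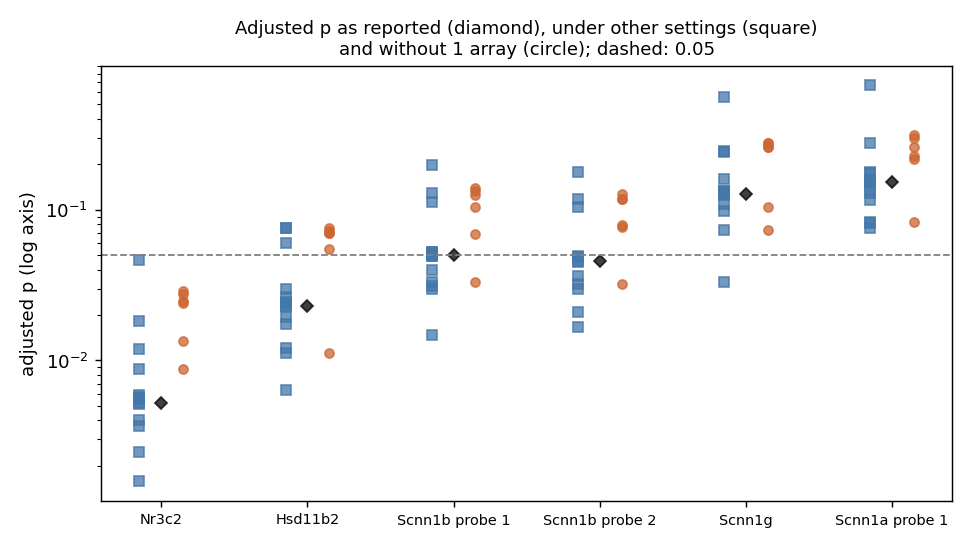
Adjusted p from limma on a log axis for Nr3c2, Hsd11b2, Scnn1b, Scnn1g and the brighter Scnn1a probe, as reported (diamonds), under the other settings (squares) and without 1 array (circles), with 0.05 as a dashed line. All points of Nr3c2 lie below the line, Hsd11b2 and Scnn1b fall on both sides, Scnn1g has 1 point below it and Scnn1a has none.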

How the data were processed

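Total RNA of renal cortex from 3 water and 3 bromate rats was labelled with Cy3 and hybridised to 1 array each, per the labels' protocols. The submitters' processing notes name Agilent Feature Extraction 10.7, and the authors' deposited scanner files hold a background-subtracted processed intensity per spot, annotated on rn4 per the file headers. A further file that the authors deposited holds a linear ratio per probe. Set against the scanner values, it is processed signal over that array's 75th percentile with no centring (largest deviation per array 0.194% to 0.367%, at ratios of at least 0.1). Its scale, centring and direction are not stated in the labels, and its column medians were 0.1043, 0.1049 and 0.103 for water and 0.1025, 0.1054 and 0.1026 for bromate.

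Here log2 processed signal minus the log2 75th percentile of each array was tested, without outlier spots (0 to 4 per array), for probes well above background on at least 3 of 6 arrays. The tests were limma's lmFit and eBayes (version 3.58.1, under R 4.3.3), with Benjamini-Hochberg adjustment over all 37783 probes and a threshold of 0.05. Probes were named by accession through RefSeq's gene table (28206 probes). A pathway or marker gene is its brightest probe. On simulated data for this comparison (37783 probes), 100 probes were changed at each size. The fit called 48% of log2 changes of 1 and 89% of log2 changes of 2, with 7 false calls. In the data themselves 2872 probes were called lower and 2717 higher. The adjusted threshold depends on how many probes change, so these shares need not hold there. The named genes were every member, up to 4 called genes with the largest difference per pathway list, up to 3 per marker list and the 3 genes most like each called member. A few genes picked by this rule are left out here or given only in counts, and others were named after their values were seen. The members and lists were chosen with earlier results of these data known. The series' design text calls the 3 animals of a group biological replicates. Alternatives are listed in the closing section.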

Additional observations from a re-analysis of the deposited data

How the results depend on the processing

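Of the member differences under 20 alternatives, the direction held in each for Nr3c2, Hsd11b2, Scnn1a, Scnn1b, Scnn1g and Tsc22d3 and changed for Sgk1, which ranged from -0.19 to 0.74. They changed the scaling (quantile, a percentile over detected probes, normexp with quantile, the authors' value table), the probes (no filter, a stricter one, outliers kept, 1 probe or the mean per gene) or the fit (intensity trend, array weights, slide block, replicate block, treat at 1.2-fold, each array left out). Member probes called lower, 4 as reported, numbered 1 with no filter, 1 with the replicate block, 1 with treat, 2 with 1 probe per gene (fewer probes tested) and 1 to 4 with an array left out. Member probes called higher were 0 throughout, with 12488 of all probes at an unadjusted p under 0.05.

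All probes called lower, 2872 as reported, and higher, 2717, numbered 1023 and 1091 with no filter, 757 and 829 with the replicate block and 719 and 860 with treat. With an array left out they ranged from 785 to 2310 and from 871 to 2064, the fewest without water replicate 2. Pathway genes called lower, 11, and higher, 2, numbered 7 and 0 with no filter, 6 and 0 with the replicate block and 7 and 0 with treat, and the higher count was 1 with 1 probe per gene. With an array left out they ranged from 6 to 12 and from 0 to 2. The unequal change of Scnn1a and Scnn1g reversed to -0.042 with normexp and quantile normalization and ranged from -0.10 to 0.30 with an array left out. The cause was not tested. Same-numbered arrays did not pair, with correlations of their deviations of 0.056, 0.073 and -0.091 for numbers 1, 2 and 3.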

Other observations

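Probes of 1 gene did not always move together among the pathway genes. Wnk1 had 4 tested probes, of which the brightest fell by 1.70 on the log2 scale, 2 others differed by -1.94 and -1.42 and were called lower, and 1 differed by 0.21 and was not called. The Fxyd6 fall of 1.81 was on its brighter probe, and its other probe differed by -0.17 and was not called. The further probes of Ndrg2 and Kcnj1 differed by -1.14 and -1.29, and both were called lower.

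Edn1 encodes endothelin 1, which aldosterone induces in the collecting duct and which in turn restrains the sodium channel. It read -6.67, -4.39 and -4.63 under water and -3.28, -2.73 and -3.11 under bromate, and was well above background on 2 of 3 water arrays. The groups did not overlap, but the difference of 2.19 ± 0.61 did not pass the limma test (adjusted p = 0.0637). Without water replicate 1, the dimmest array for this gene, the difference was 1.47 and passed (adjusted p = 0.0201). Edn1 was singled out after its values had been seen.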
